A study of Mus musculus with 8 samples.

Results

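Interleukin-15 and the receptor chains of its cytokine family were followed in peritoneal macrophages with and without FURIN, before and after lipopolysaccharide (LPS). The set held 10 genes of 37018 genes and transcripts measured. They were picked by family membership, and each was read from its brightest probe over all arrays. Il15 and Il7 encode ligands, Il15ra, Il2ra, Il7r, Il4ra and Il21r encode private receptor chains, and Il2rg encodes the common gamma chain that these receptors share. Il13ra1 encodes the chain that pairs with the IL-4 receptor alpha chain in the type II receptor for IL-4 and IL-13. Il10ra encodes the ligand-binding chain of the IL-10 receptor, which belongs to another receptor class. All 10 genes passed the filter on dim probes.

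Cytokines of the common gamma chain family signal through Janus kinases bound to the receptor tails and through STAT factors that enter the nucleus. IL-15 is usually held on the surface of the producing cell by the IL-15 receptor alpha chain and presented to neighbouring T and NK cells, and macrophages and dendritic cells are known producers. IL-2 receptor alpha is best known from activated and regulatory T cells, and IL-7 receptor from lymphocytes, while IL-4 and IL-10 receptors are well known on macrophages.

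The cells came from the peritoneal cavity of LysMCre-fur(fl/fl) mice on a C57BL/6 background, here called KO, in which Cre from the LysM (Lyz2) locus deletes floxed Furin in macrophages and granulocytes, and from WT littermates. FURIN is a proprotein convertase, a protease that cleaves precursor proteins. Adherent cells were left unstimulated or received LPS at 1 μg/ml, a bacterial cell wall component that acts through Toll-like receptor 4, for 1, 4 or 24 h. RNA was hybridised to 8 Agilent 2-colour arrays, 2 per time point, each array holding KO and WT RNA of 1 time point. In replicate 1 the KO RNA carried Cy5 and the WT RNA Cy3, and in replicate 2 the dyes were exchanged, so that replicate and dye orientation cannot be told apart. The methods call the replicates biological, and neither the animals behind each of them nor their age is given in the sources used here. The p-values measure the spread between these arrays, which the fits take as independent across time points. With a replicate term they measure the spread left after the shift between the replicates is removed. The growth protocol names 4 h of stimulation for every sample, whereas the titles give 0, 1, 4 and 24 h, which were used here.

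All 8 arrays lay on 1 slide. Between 43.8% and 51.3% of the gene spots were well above background in a channel. Of 8 macrophage markers such as Adgre1 and Csf1r, 7 were measured, and all 7 were above background in all 16 channels. All 8 markers of B cells and 6 of 8 markers of T and NK cells were also above background in every channel. Ncr1, a defining NK cell marker, was above background in none. In such bulk RNA, fewer cells of a type and less RNA per cell cannot be told apart. Furin itself was lower in KO on 6 of 8 arrays, with log2 KO/WT ratios down to -0.85. At 4 h it was not lower in the RNA labelled KO, at 0.00 in replicate 1 and 0.33 in replicate 2. Where the probe lies relative to the deleted part of the gene is not known here. Lyz2, whose locus carries Cre, was lower in KO on all 8 arrays, between -1.85 and -0.74. At 4 h its ratios were -1.04 in replicate 1 and -1.13 in replicate 2.

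Promoters of 7 members were found in the RefSeq table for build GRCm38.p6, 8 windows in all since Il15ra has a pair of start sites. A window of 300 bases, 250 before the start site and 50 from it on, was searched on both strands for the NF-kB consensus and for AP-1 (TGANTCA), the gamma-activated site GAS (TTCNNNGAA), the interferon-stimulated response element and PU.1 (GAGGAA). These are sites known to be bound by factors downstream of LPS, by STAT proteins or, for the last, by PU.1. The 3 windows printed are those with an NF-kB, AP-1 or GAS match before the start site. Only the 250 bases before the start site are printed, 5′ to 3′ on the strand of the gene, and capitals mark the match.
Il2ra, chr2:11642542-11642791, plus strand, NF-kB in capitals: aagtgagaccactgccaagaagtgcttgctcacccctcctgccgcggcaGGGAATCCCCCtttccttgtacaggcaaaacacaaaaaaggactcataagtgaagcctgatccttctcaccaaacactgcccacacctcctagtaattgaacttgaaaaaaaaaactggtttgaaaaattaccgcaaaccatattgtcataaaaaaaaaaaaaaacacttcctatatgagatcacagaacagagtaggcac
Il15ra, downstream start site, chr2:11705462-11705711, plus strand, AP-1 in capitals: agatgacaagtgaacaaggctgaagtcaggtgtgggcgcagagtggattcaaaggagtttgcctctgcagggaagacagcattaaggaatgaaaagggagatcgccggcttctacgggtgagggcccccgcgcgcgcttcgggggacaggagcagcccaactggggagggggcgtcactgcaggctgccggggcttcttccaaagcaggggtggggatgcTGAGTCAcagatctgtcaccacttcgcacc
Il7r, chr15:9529877-9530126, minus strand, GAS in capitals: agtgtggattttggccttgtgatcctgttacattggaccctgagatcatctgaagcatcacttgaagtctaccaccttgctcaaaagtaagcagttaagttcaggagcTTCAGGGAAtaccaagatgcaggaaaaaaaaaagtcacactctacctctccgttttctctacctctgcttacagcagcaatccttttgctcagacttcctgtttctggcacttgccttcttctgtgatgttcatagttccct
The Il2ra capitals hold a pair of overlapping NF-kB consensus matches, GGGAATCCCC from -201 and GGAATCCCCC from -200 relative to the start site. The AP-1 match of Il15ra begins at -30 and the GAS match of Il7r at -142, and both match on either strand. Il4ra also held an NF-kB consensus match, which begins at base 21 after its start site. Over 32851 promoter windows of the same length, 8.46% held the NF-kB consensus, 7.81% AP-1, 8.3% GAS, 3.44% the interferon-stimulated response element and 28.3% PU.1. Among the 8 member windows, 2 held NF-kB, 1 AP-1, 1 GAS, 0 the interferon-stimulated response element and 1 PU.1. A match is a description of these letters only. On GRCm38.p6 Il2ra (chr2:11642792-11693194) and Il15ra (chr2:11705172-11733985) both lie on chromosome 2, and Il4ra (chr7:125552271-125579474) and Il21r (chr7:125603252-125634397) both lie on chromosome 7.

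**Figure D1:**
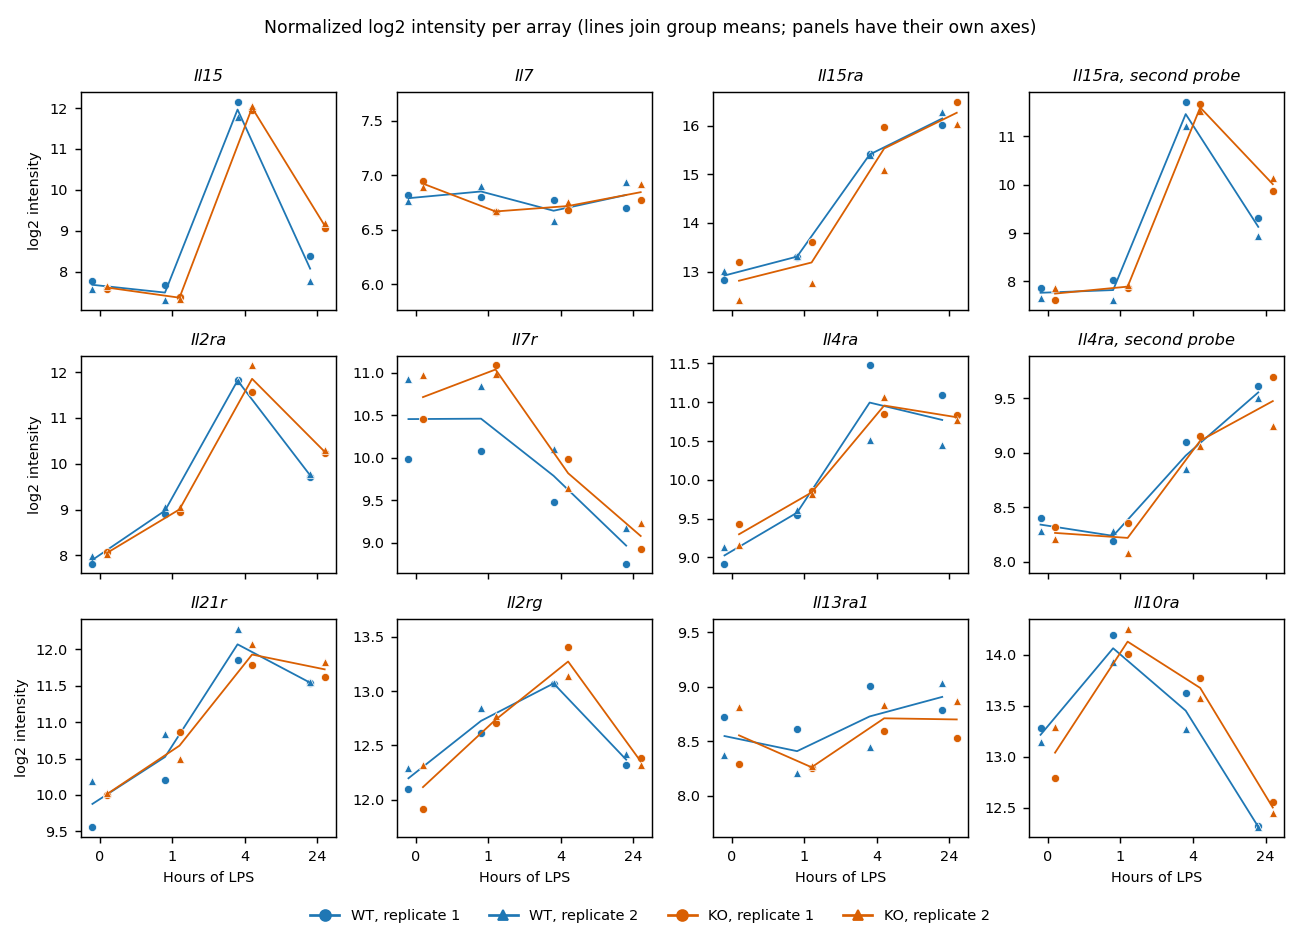
Normalized log2 intensity (vertical axis) of the 10 genes, and of the second probes of Il15ra and Il4ra, against hours of LPS (horizontal axis, evenly spaced categories) for WT (blue) and KO (orange), with circles for replicate 1, triangles for replicate 2 and lines through group means. Il15 peaks at 4 h and is higher in KO than in WT at 24 h, Il2ra also peaks at 4 h, Il7r falls by 24 h, and Il7 and Il13ra1 passed the test at no time.

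The first question was how the family responded to LPS in each genotype. At 4 h, 6 of the 10 genes rose in WT and 7 in KO, where 15.5% of all genes and transcripts tested rose in WT and 16.2% in KO (limma separate-channel fit, adjusted p below 0.05 throughout). The 6 genes of WT were Il15, Il15ra, Il2ra, Il4ra, Il21r and Il2rg, and Il10ra was added in KO. At 1 h, 3 rose in WT and 3 in KO, each time Il2ra, Il2rg and Il10ra, against 3.35% and 3.08% of all tested. At 24 h, 4 genes rose in WT and 5 in KO, against 13.5% and 12.8%. Fewer fell. No member fell at 1 h in WT or KO, where 5.15% and 4.45% of all tested fell. At 4 h no member fell in WT, where 19.2% fell, and Il7r fell in KO, where 19.7% fell. At 24 h, 2 members fell in each genotype, Il7r and Il10ra, against 16.8% in WT and 15.9% in KO. The median log2 change of the 10 genes in WT at 1, 4 and 24 h was 0.46, 1.42 and 0.38, beside -0.02, 0.00 and -0.01 over everything tested.

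Markers of cell types moved with LPS as well. Of 7 macrophage markers 5 fell at 4 h and 6 at 24 h in WT, and 4 and 6 in KO. Their summed level in WT went from between 297047 and 319733 without LPS to between 108407 and 131756 at 24 h, and in KO from between 281474 and 287434 to between 104697 and 106354. The neutrophil sum in WT went from between 4437 and 4615 to between 23585 and 60792, with 2 of 5 markers up and 1 down at 24 h, and the dendritic cell sum from between 3341 and 6767 to between 761 and 763, with 1 of 5 up and 2 down. In KO the neutrophil sum went from between 3626 and 4382 to between 38439 and 65656 and the dendritic cell sum from between 4261 and 6071 to between 771 and 814. The mast cell sum in WT went from between 7550.5 and 10722 to between 1722 and 3010 at 24 h, and in KO from between 9231 and 13664 to between 3509 and 3571, with 4 of 6 markers down in each. The mesothelial and stromal sum went from between 640.3 and 664 to between 1815 and 2013 in WT and from between 692 and 799 to between 2379 and 2477 in KO, with 1 of 6 up in each. Of 8 B cell markers 3 rose and 3 fell at 4 h and 3 fell at 24 h in WT, and 2 rose and 5 fell at 4 h and 2 fell at 24 h in KO. Their sum went from between 66995 and 86907 to between 39720.4 and 41418 in WT and from between 74708 and 108270 to between 43568 and 49631 in KO. Of 8 T and NK markers 1 rose and 2 fell at 24 h in WT, and 1 rose and 3 fell in KO. At 4 h, 1 of them rose in WT, and 1 rose and 1 fell in KO. Of 5 dendritic cell markers 2 rose and 2 fell at 4 h in each genotype, and of 5 neutrophil markers 1 rose and 1 fell. The mesothelial and stromal list had 1 marker up at 4 h in WT and 1 down in KO, and the mast cell list 0 in either. The part of these shifts in the LPS changes of the members was not tested.

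Il15, which encodes the ligand that supports NK cells and memory T cells, rose steeply and briefly. In WT its log2 intensity was 7.78 and 7.58 without LPS, 7.67 and 7.31 at 1 h, 12.15 and 11.78 at 4 h and then 8.39 and 7.77 at 24 h (replicates 1 and 2). In KO it was 7.58 and 7.64, then 7.39 and 7.34, then 11.96 and 12.05, and 9.07 and 9.19 at 24 h. The 4 h values lay above all others in both genotypes, and at 24 h both KO values lay above both WT values. The rise at 4 h was 19.5-fold in WT (log2 change 4.28 ± 0.19, SE, n = 2, limma adjusted p = 6.86e-10) and 21.0-fold in KO (4.39 ± 0.19, adjusted p = 5.57e-10). From 4 h to 24 h the log2 level of Il15 changed by -3.89 in WT and by -2.88 in KO (adjusted p = 6.56e-09 and 7.47e-08). The change from 4 to 24 h was a fall for 4 members in each genotype, Il15, Il2ra, Il2rg and Il10ra, against 14.6% of all tested in WT and 15.1% in KO. At 24 h Il15 was still 2.86-fold above the unstimulated level in KO (1.51 ± 0.19, adjusted p = 2.33e-05). In WT the value at 24 h was 0.39 ± 0.19 with an adjusted p of 0.143, without replicate 2 of 24 h it was 0.70 (0.0144), without replicate 1 of 24 h 0.09 (0.823), and with a term for the dye the adjusted p was 0.0367. Il15 did not pass the test at 1 h in WT (-0.19 ± 0.19) or in KO (-0.25 ± 0.19).

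Il7, the stromal cytokine that sustains lymphocyte precursors, stayed close to background. Its log2 intensity ran from 6.58 to 6.95 over all 16 channels, and 3 of these were not well above background. No LPS time passed the test in either genotype, with log2 changes from -0.26 to 0.06. For the signals as processed by the scanner software, Il7 at 4 h reached -0.88 in WT (adjusted p = 0.0277) and -0.98 in KO (adjusted p = 0.0155), where the median of everything tested was -0.12 in WT and -0.14 in KO. With loess within arrays alone Il7 in KO at 4 h was -0.36 (adjusted p = 0.0446).

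Il15ra, the private chain that binds IL-15 and presents it to other cells, was read by 2 probes of the same transcript, and these gave different time courses. On the brighter probe the WT log2 intensities were 12.82 and 13.02 without LPS, 13.30 and 13.31 at 1 h, 15.42 and 15.39 at 4 h and then 16.01 and 16.28 at 24 h. KO gave 13.21 and 12.42, then 13.61 and 12.76, then 15.97 and 15.09, and 16.49 and 16.04. This probe rose up to 24 h, where the change was 9.36-fold in WT (3.23 ± 0.32, SE, adjusted p = 2.89e-06) and 10.9-fold in KO (3.45 ± 0.32, adjusted p = 1.62e-06). The WT values were close together and the KO values far apart, with replicate 1 above replicate 2 at every time. The dimmer probe read 7.87 and 7.66 in WT without LPS, 8.03 and 7.62 at 1 h, 11.72 and 11.21 at 4 h and then 9.31 and 8.95 at 24 h. In KO it read 7.62 and 7.87, then 7.85 and 7.93, then 11.68 and 11.52, and 9.88 and 10.14 at 24 h. This probe peaked at 4 h, and at 24 h its KO values lay above its WT values, as with Il15. Its rise at 4 h was 13.0-fold in WT (3.70 ± 0.19, adjusted p = 3.26e-09) and 14.4-fold in KO (3.85 ± 0.19, adjusted p = 2.3e-09), and at 24 h it was still 2.58-fold and 4.81-fold up.

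Over the 16 channels, which share arrays and samples, the dimmer Il15ra probe had a Pearson correlation of 0.97 with Il15 and the brighter one of 0.59, and the 2 probes of Il15ra one of 0.76 with each other. The genes with a course most like the brighter probe, among 20835 other named genes, were Mcam and Hpca with correlations of 0.9990 and 0.9985. Chosen over the same WT and KO channels, these genes had a KO/WT ratio above 0 on every array of replicate 1, from 0.21 to 0.47 for Mcam and from 0.25 to 0.66 for Hpca. On every array of replicate 2 it was below 0, from -0.54 to -0.17 and from -0.55 to -0.21. The transcripts that the brighter probe captures were not tested, and each statement on Il15ra holds for 1 probe.

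Il2ra, the private alpha chain that raises the affinity of the IL-2 receptor, rose already at 1 h. WT log2 intensities were 7.82 and 7.98 without LPS, 8.91 and 9.05 at 1 h, 11.82 and 11.81 at 4 h and then 9.71 and 9.79 at 24 h. KO gave 8.07 and 8.03, then 8.95 and 9.05, then 11.56 and 12.15, and 10.23 and 10.29. In both genotypes the values of the 4 times did not overlap, and at 24 h both KO values lay above both WT values. It was up 2.11-fold at 1 h in WT (1.08 ± 0.15, SE, adjusted p = 0.000293) and 1.93-fold in KO (0.95 ± 0.15, adjusted p = 0.000985). At 4 h it was up 15.1-fold in WT (3.91 ± 0.15, adjusted p = 1.88e-10) and 13.9-fold in KO (3.80 ± 0.15, adjusted p = 2.48e-10), and at 24 h 3.59-fold and 4.62-fold (1.85 ± 0.15 and 2.21 ± 0.15). Its course correlated with that of Il15 at 0.92 over the 16 channels, and the genes most like it were Mndal (0.989) and Edn1 (0.987).

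Il4ra, the chain shared by IL-4 and IL-13 receptors, and Il21r, which binds IL-21, rose and stayed up. Il4ra ranged from 8.92 to 9.43 in the 4 unstimulated channels and from 10.45 to 11.09 at 24 h. It was up 3.92-fold at 4 h in WT (1.97 ± 0.26, SE, adjusted p = 2.55e-05) and 3.16-fold in KO (1.66 ± 0.26, adjusted p = 0.000124), and up 3.35-fold and 2.84-fold at 24 h. The second Il4ra probe also rose at 4 h, by 0.63 in WT and 0.85 in KO on the log2 scale, and further to 1.21 in each genotype at 24 h. The 2 probes of Il4ra thus had the same direction and a different size at 4 h. Il21r lay between 9.56 and 10.20 without LPS and between 11.79 and 12.28 at 4 h. It was up 4.58-fold at 4 h in WT (2.20 ± 0.24, adjusted p = 3.86e-06) and 3.78-fold in KO (1.92 ± 0.24, adjusted p = 1.43e-05), and 3.18-fold and 3.29-fold at 24 h. Neither gene passed the test at 1 h, with log2 changes from 0.54 to 0.67, although Il21r in WT without replicate 1 of 1 h was at 0.96 (adjusted p = 0.0368).

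Il7r, the IL-7 receptor alpha chain, moved the other way. In WT its log2 intensities were 9.98 and 10.93 without LPS, 10.08 and 10.84 at 1 h, 9.48 and 10.10 at 4 h and then 8.75 and 9.18 at 24 h. In KO they were 10.46 and 10.97, then 11.09 and 10.99, then 9.99 and 9.65, and 8.93 and 9.23. All 24 h values lay below all unstimulated values, and in WT replicate 2 was the higher at every time. Il7r at 24 h was 0.356 of its unstimulated level in WT (-1.49 ± 0.32, SE, adjusted p = 0.00214) and 0.322 in KO (-1.64 ± 0.32, adjusted p = 0.00112). At 4 h it was lower in KO (-0.90 ± 0.32, adjusted p = 0.04), a call that was lost without replicate 2 of 0 h (-0.64, 0.187), either array of 4 h (-1.07, 0.0502 and -0.73, 0.176) or either array of 24 h (0.0548 each). The WT value at 4 h was -0.67 ± 0.32 with an adjusted p of 0.131. It passed with the replicate number in the fit (0.0433), without replicate 1 of 0 h (-1.14, 0.0194), with loess alone (-1.08, 0.0183) and with the processed signals (-1.19, 0.0384).

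Il7r is also a lymphocyte gene, and its ratio between genotypes was set beside the markers of T and NK cells. The gene with a course most like Il7r was Ltb, a lymphocyte product, with a correlation of 0.98. The summed level of the 8 T and NK markers had a log2 KO/WT ratio in replicate 1 of 0.63, 1.15, 0.38 and 0.44 at 0, 1, 4 and 24 h. In replicate 2 it was -0.15, -0.10, -0.40 and -0.08. The ratio of Il7r was 0.47, 1.01, 0.51 and 0.17 in replicate 1 and 0.05, 0.15, -0.45 and 0.05 in replicate 2. In both, replicate 1 was the higher at every time and 1 h in replicate 1 was the highest value. On a linear scale the marker sum ran from 6573 to 11807 in unstimulated WT, from 10148 to 10614 in unstimulated KO, from 5404 to 7146 in WT at 24 h and from 6779 to 7314 in KO at 24 h. The summed B cell markers had log2 KO/WT ratios of 0.16, 0.60, -0.36 and 0.07 in replicate 1 at 0, 1, 4 and 24 h. In replicate 2 these were 0.32, 0.31, -0.07 and 0.32. The part of lymphocyte RNA in the Il7r values was not tested.

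Il2rg, the common gamma chain, rose at 1 and 4 h and was back near its first level at 24 h. It lay between 11.91 and 12.32 without LPS, between 13.06 and 13.41 at 4 h and between 12.32 and 12.42 at 24 h. It rose 1.83-fold at 4 h in WT (0.87 ± 0.14, SE, adjusted p = 0.000142) and 2.22-fold in KO (1.15 ± 0.14, adjusted p = 1.06e-05). The rise at 1 h was 1.44-fold in WT (0.53 ± 0.14, adjusted p = 0.028) and 1.54-fold in KO (0.62 ± 0.14, adjusted p = 0.0124). These 1 h calls were lost in WT without replicate 1 of 0 h, without either array of 1 h and without either array of 24 h, and in KO without replicate 1 of 0 h and without either array of 1 h. Both were also lost with loess alone (adjusted p = 0.115 in WT and 0.0675 in KO) and with the processed signals (0.182 and 0.112). At 24 h Il2rg was at 0.17 in WT and 0.24 in KO and did not pass the test. With loess alone it passed there, at 0.45 in WT (0.0477) and 0.51 in KO (0.0282), and in KO also without replicate 2 of 0 h (0.44, 0.0435).

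Il13ra1 did not pass the test at any time, with log2 intensities from 8.21 to 9.03 and log2 changes from -0.29 to 0.36. Il10ra rose first and then fell. It lay between 12.79 and 13.29 without LPS, between 13.93 and 14.25 at 1 h, between 13.28 and 13.77 at 4 h and between 12.31 and 12.56 at 24 h. The groups at 1 h and 24 h did not overlap with the unstimulated one. It was up 1.80-fold at 1 h in WT (0.85 ± 0.17, SE, adjusted p = 0.00531) and 2.13-fold in KO (1.09 ± 0.17, adjusted p = 0.00101). At 24 h it was at 0.535 of the unstimulated level in WT (-0.90 ± 0.17, adjusted p = 0.000834) and at 0.688 in KO (-0.54 ± 0.17, adjusted p = 0.0273). The 24 h change in KO was -0.29 without replicate 2 of 0 h (adjusted p = 0.315), -0.60 without replicate 1 of 24 h (0.0852) and -0.48 without replicate 2 of 24 h (0.167). With loess within arrays alone it was -0.21 in KO (0.625) and -0.58 in WT (0.0592), and with the processed signals -0.42 in KO (0.118). At 4 h Il10ra was up in KO (0.64 ± 0.17, adjusted p = 0.0084) and at 0.24 ± 0.17 in WT (adjusted p = 0.346). Without replicate 1 of 0 h the 4 h value in KO was 0.38 (adjusted p = 0.137) and without replicate 1 of 4 h 0.54 (0.0639), and the 1 h value in WT without replicate 1 of 1 h was 0.72 (0.0666).

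**Figure D2:**
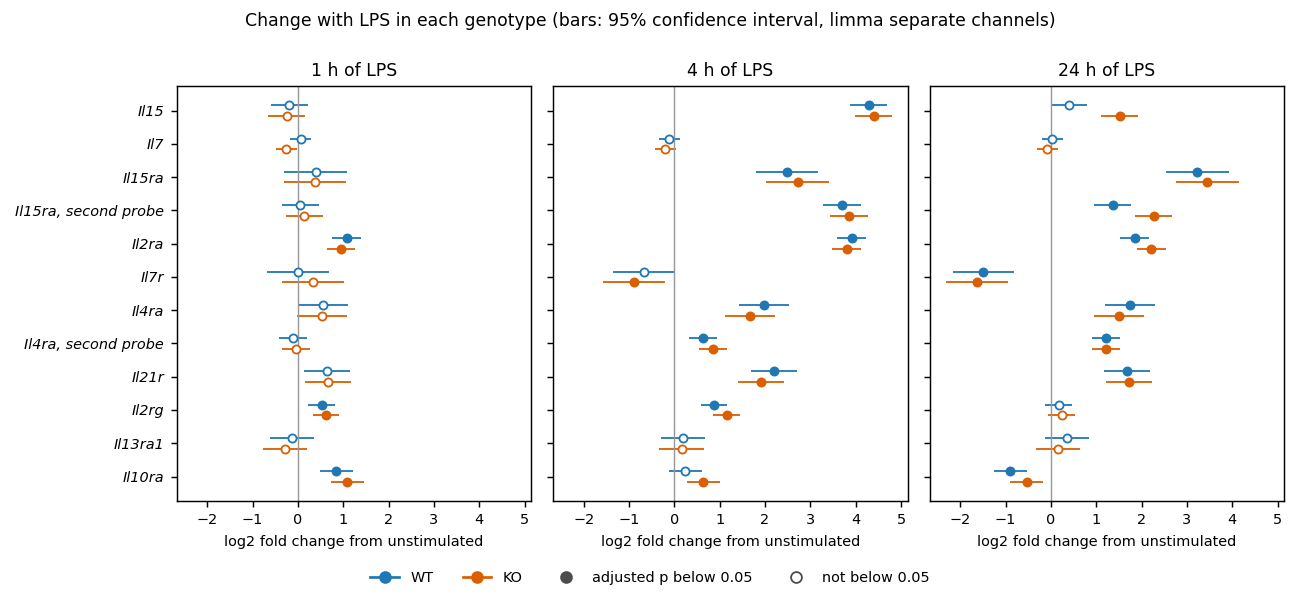
Log2 fold change from unstimulated cells (horizontal axis) at 1, 4 and 24 h of LPS for each gene and second probe (vertical axis), in WT (blue) and KO (orange), with 95% confidence intervals of the limma separate-channel fit and filled points where the adjusted p is below 0.05. The intervals of WT and KO overlap for every gene except Il15 and the second probe of Il15ra at 24 h.

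The second question was whether the genes differed between KO and WT. None of the 10 passed the limma test at an adjusted p below 0.05 at any time. An unadjusted p below 0.05 was found for 1 of 10 members at 1 h, Il7r, for 2 at 24 h, Il15 and Il2ra, and for 0 at the other times. Over everything tested such a p was found for 2126 of 36947 without LPS, 2017 at 1 h, 1592 at 4 h, and 1263 after 24 h. Over everything tested, 0% were called at 0 h, 0% at 1 h, 0.00812% at 4 h and 0.0244% at 24 h. For the mean of the 4 times 0 members were called, beside 0.563% of all tested. An unadjusted p below 0.05 was found there for 2 members and for 3935 of 36947 of all tested. For the difference in LPS response, which is the ratio at a time minus the unstimulated ratio, no member was called, beside 0%, 0% and 0% of all tested at 1, 4 and 24 h. At an unadjusted p below 0.05 there were 1, 0 and 1 members, and 517, 1073 and 1230 of 36947 over everything tested. The methods' t-test between the 2 WT and 2 KO channels gave 0 members after Benjamini-Hochberg adjustment. Before adjustment it gave Il4ra at 1 h, among 1756 of all tested, and Il2ra at 24 h, among 1515. For Il4ra this was the brighter probe, at a mean of 0.26, whereas the dimmer probe averaged -0.02 at that time.

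The difference of Il15 at 24 h was the largest among the members. Its log2 KO/WT ratio was 0.69 in replicate 1 and 1.42 in replicate 2, above 0 on both arrays, while at 0, 1 and 4 h the 6 ratios lay between -0.28 and 0.28. The mean at 24 h was 1.05 ± 0.18 (SE), a 2.08-fold higher level in KO, with an unadjusted limma p of 0.000324 and an adjusted p of 0.184. The ratios of Il15 were lower in replicate 1 than in replicate 2 at every time, and the replicate term was -0.44 (adjusted p = 0.0189). With the replicate number in the fit, the 24 h difference had an adjusted p of 0.00128, and Il15 was then 1 of 10 members called, where 0.287% of all tested were called higher in KO. In that fit the mean over the times was 0.23 ± 0.05 (adjusted p = 0.0221). Il15 was again the 1 member called, against 2.79% of all tested called higher in KO. Its mean ratios at 0, 1 and 4 h were -0.07, -0.13 and 0.04, so the mean over the times rests on 24 h. The difference of Il15 in LPS response at 24 h was 1.12 ± 0.26, with an adjusted p of 0.687 without the replicate term and 0.0108 with it. With the term 0.0866% of all tested were called higher in KO. By replicate, the 24 h response of Il15 was 0.60 in WT and 1.49 in KO on the arrays of replicate 1, and 0.19 and 1.54 on those of replicate 2. The KO response was the larger in both replicates. The study plotted Il15 among genes with a differing LPS response in these same samples, so this gene is not independent evidence of that direction.

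The other members of the IL-15 and IL-2 branches had smaller differences at 24 h. The dimmer Il15ra probe had ratios of 0.57 and 1.20 at 24 h, a mean of 0.88 ± 0.19 (SE), and ratios between -0.24 and 0.31 before. Its adjusted p was 0.345, and 0.00146 once the replicate term was fitted. The difference in its 24 h response was 0.90 ± 0.26, with adjusted p of 1 and 0.0173 in these fits. The brighter Il15ra probe was at 0.48 and -0.24 at 24 h, and its ratio changed sign between the replicates at all 4 times. Its replicate term was 0.86 ± 0.09 (adjusted p = 0.000197). The replicate term of the dimmer probe was -0.48 ± 0.09 (adjusted p = 0.00692), so the 2 probes of Il15ra shifted in opposite directions between the replicates. Il2ra was at 0.52 and 0.51 at 24 h, a 1.43-fold higher level in KO on both arrays, with an unadjusted p of 0.00452 and adjusted p of 0.64, which became 0.13 when replicate was fitted. Lhx2 and Pou3f1, the genes with a course most like Il15 (correlations of 0.991 each), had KO/WT ratios at 24 h of 0.94 ± 0.15 and 0.39 ± 0.13, with adjusted p of 0.136 and 1. These channels were also those over which the likeness was measured, so the sign of these ratios is partly fixed by the choice.

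At 1 h Il7r was at 0.58 ± 0.25 (SE, unadjusted p = 0.0446, adjusted p = 0.893), with 1.01 in replicate 1 and 0.15 in replicate 2. Il7 at 1 h was at -0.18 ± 0.10, below 0 on both arrays, and its 4 channels there did not overlap, although 1 of them was not well above background. Without LPS Il7 had the opposite sign, at 0.13 and 0.14, also without overlap. At 24 h KO also lay above WT without overlap for Il21r (0.18 ± 0.22) and Il10ra (0.19 ± 0.16), which did not pass the test. The same held without LPS for Il2ra (0.15 ± 0.14) and Il4ra (0.27 ± 0.25), at 1 h for Il7r and Il4ra (0.26 ± 0.25), and at 4 h for Il2rg (0.20 ± 0.11), where Furin was not lower in the RNA labelled KO. None of these passed the test. With 2 values per genotype a lack of overlap arises easily, and its share over everything tested was not counted. On the second Il4ra probe the mean ratio was -0.08 without LPS and -0.02 at 1 h. The 95% intervals of the ratio of Il2rg at 24 h ran from -0.27 to 0.23 and of Il4ra from -0.54 to 0.61. At 4 h, where Furin was not lower in the RNA labelled KO, the mean ratios of all 10 members lay between -0.14 and 0.22. The mean over the 4 times was 0.25 ± 0.12 for Il7r (adjusted p = 0.563, and 0.0534 when replicate was fitted) and 0.18 ± 0.07 for Il2ra (adjusted p = 0.354 and 0.124). Besides Il15 and Il15ra, Il7r (0.59 ± 0.13, adjusted p = 0.0187) and Il13ra1 (-0.55 ± 0.13, adjusted p = 0.0224) had a replicate term past the threshold.

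**Figure D3:**
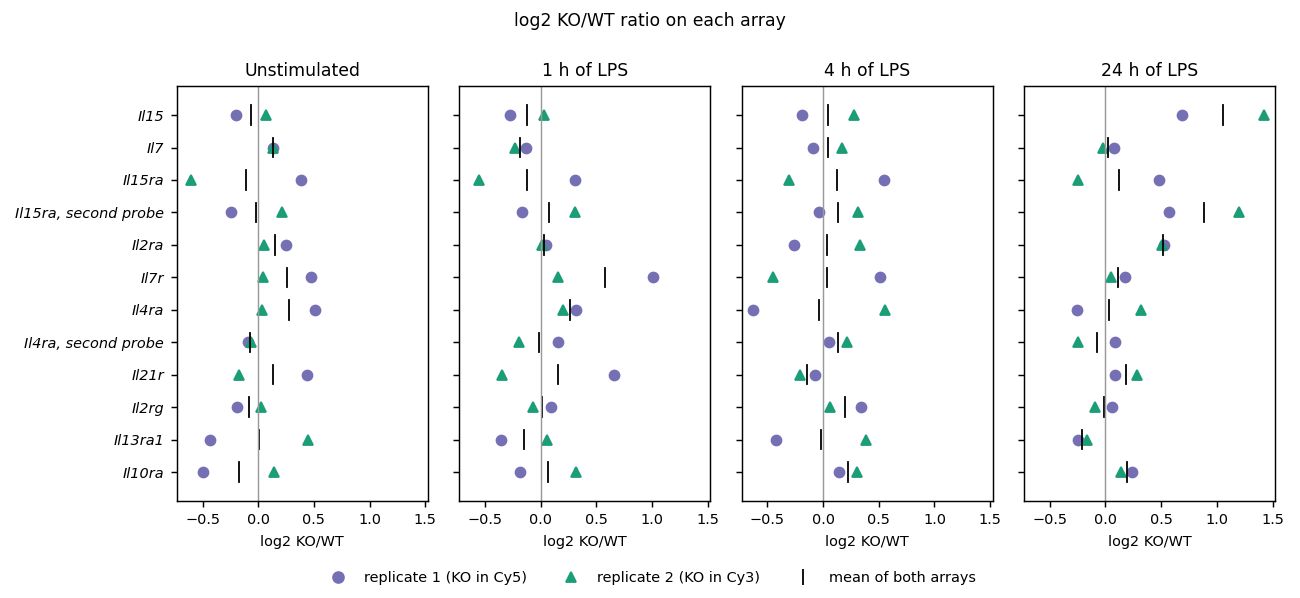
Log2 KO/WT ratio (horizontal axis) on each array for each gene and second probe (vertical axis) without LPS and at 1, 4 and 24 h, with circles for replicate 1 (KO in Cy5), triangles for replicate 2 (KO in Cy3) and black bars for the mean. At 24 h both arrays lie above 0 for Il15, the second probe of Il15ra, Il2ra, Il7r, Il21r and Il10ra, and the brighter Il15ra probe has circles above 0 and triangles below 0 at all 4 times.

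Levels of markers of other cells stand beside these differences. At 24 h the summed T and NK markers had KO/WT ratios of 0.44 and -0.08, the B cell markers 0.07 and 0.32, and the macrophage markers -0.03 and -0.33. The neutrophil markers were at -0.66 and 1.48, with sums from 23585 to 60792 in WT and from 38439 to 65656 in KO. The mesothelial and stromal markers were at 0.39 and 0.30, with sums from 1815 to 2013 in WT and from 2379 to 2477 in KO, and 1 of the 6 markers was above background in all channels and 1, Pdgfra, in none. The mast cell markers were at 0.22 and 1.05 at 24 h, with sums from 1722 to 3010 in WT and from 3509 to 3571 in KO, and the dendritic cell markers at 0.09 and 0.02. Ms4a2 of the mast cell list, Xcr1 of the dendritic cell list and Mpo and Ngp of the neutrophil list were above background in no channel. No marker of any of the 7 lists was called between KO and WT at a single time. Csf1r was lower in KO in the mean over the times (-0.41 ± 0.05, adjusted p = 0.0183) and Icam2 higher (0.34 ± 0.05, adjusted p = 0.0265). The part of other cells in the values of Il15, Il15ra and Il2ra was not tested.

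The rest of the pathway was described by 28 other genes, of which 24 were well above background in at least 8 of the 16 channels. In WT, 11 of 28 rose and 0 fell at 1 h, 16 rose and 4 fell at 4 h, and 10 rose and 5 fell at 24 h. Over everything tested in WT at 1, 4 and 24 h, 3.35%, 15.5% and 13.5% rose and 5.15%, 19.2% and 16.8% fell. In KO, 9 rose and 0 fell at 1 h, 13 rose and 3 fell at 4 h, and 11 rose and 5 fell at 24 h, beside 3.08%, 16.2% and 12.8% of all tested that rose and 4.45%, 19.7% and 15.9% that fell. The median log2 change in WT was 0.37, 0.59 and 0.06 at 1, 4 and 24 h. Without a replicate term, no gene of the 28 passed the limma test between KO and WT at any time, in the mean or in the response, beside the shares of all tested given above.

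Of 8 feedback and target genes of STAT signalling, 6 rose at 1 h, 8 at 4 h and 5 at 24 h in WT, and 5, 7 and 5 in KO, and none fell. The shares of all tested that rose were 3.35%, 15.5% and 13.5% in WT and 3.08%, 16.2% and 12.8% in KO. Socs1, a feedback inhibitor of Janus kinases, was up by 5.67 ± 0.17 (SE) at 4 h and 5.63 ± 0.17 at 24 h on the log2 scale in WT. Socs3, the inhibitor best known from IL-6 and IL-10 signalling, was up by 3.86 ± 0.21 at 1 h, and Cish, a STAT5 target, by 3.26 ± 0.23 at 1 h and 4.71 ± 0.23 at 4 h. Pim1, Myc and Il4i1 also rose at 1 h, by 3.27, 3.19 and 1.98. These genes answer to many signals, and no measurement here tells which. Of the kinases, Jak2 rose at 4 h by 3.28 ± 0.13 in WT and 3.27 ± 0.13 in KO, Jak1 rose by 0.81 ± 0.14 in WT, and Jak3, the kinase that binds the common gamma chain, rose by 0.88 ± 0.11 at 24 h in WT and 0.90 ± 0.11 in KO.

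The STAT factors split. Stat3 and Stat5a rose at 4 h in both genotypes, by 1.74 ± 0.12 and 2.07 ± 0.14 (SE) in WT. Stat5b and Stat6 fell at 4 h, with log2 changes of -0.93 ± 0.17 and -0.62 ± 0.18 in WT, and again at 24 h with -0.82 and -0.85. Stat5a and Stat5b are close paralogs that transmit IL-2, IL-7 and IL-15 signals, and Stat6 transmits those of IL-4 and IL-13. All 4 had the same call at 4 h in KO.

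Among the other receptor chains, Il2rb, the beta chain that IL-2 and IL-15 receptors share, rose at 24 h by 1.30 ± 0.27 (SE) in WT and 1.22 ± 0.27 in KO. Il10rb, the second chain of the IL-10 receptor, fell by 0.84 at 24 h in WT and in KO on the log2 scale, and Crlf2, a receptor chain for TSLP, was at -0.58 in WT and -0.47 in KO. Of the other ligands, Il10 rose at all 3 times, by 2.65 ± 0.33, 4.71 ± 0.33 and 3.40 ± 0.33 in WT. Tslp was not well above background without LPS and at least 3.70-fold higher at 4 h in WT and at least 4.15-fold in KO. Il13 was above background on no unstimulated array and on both WT arrays at 1 h, where it was at least 1.72-fold higher. Such a bound sets the mean level against, on each unstimulated array, the lowest signal well above background or the probe's own signal, whichever was higher. Il9 and Il21 were above background in none of the 16 channels, although Il21 passed the test at 4 h in WT and at 24 h in KO and is counted above. Il2 was above background in 9 of the 16 channels, Il4 in 14 and Il13 in 6.

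**Figure D4:**
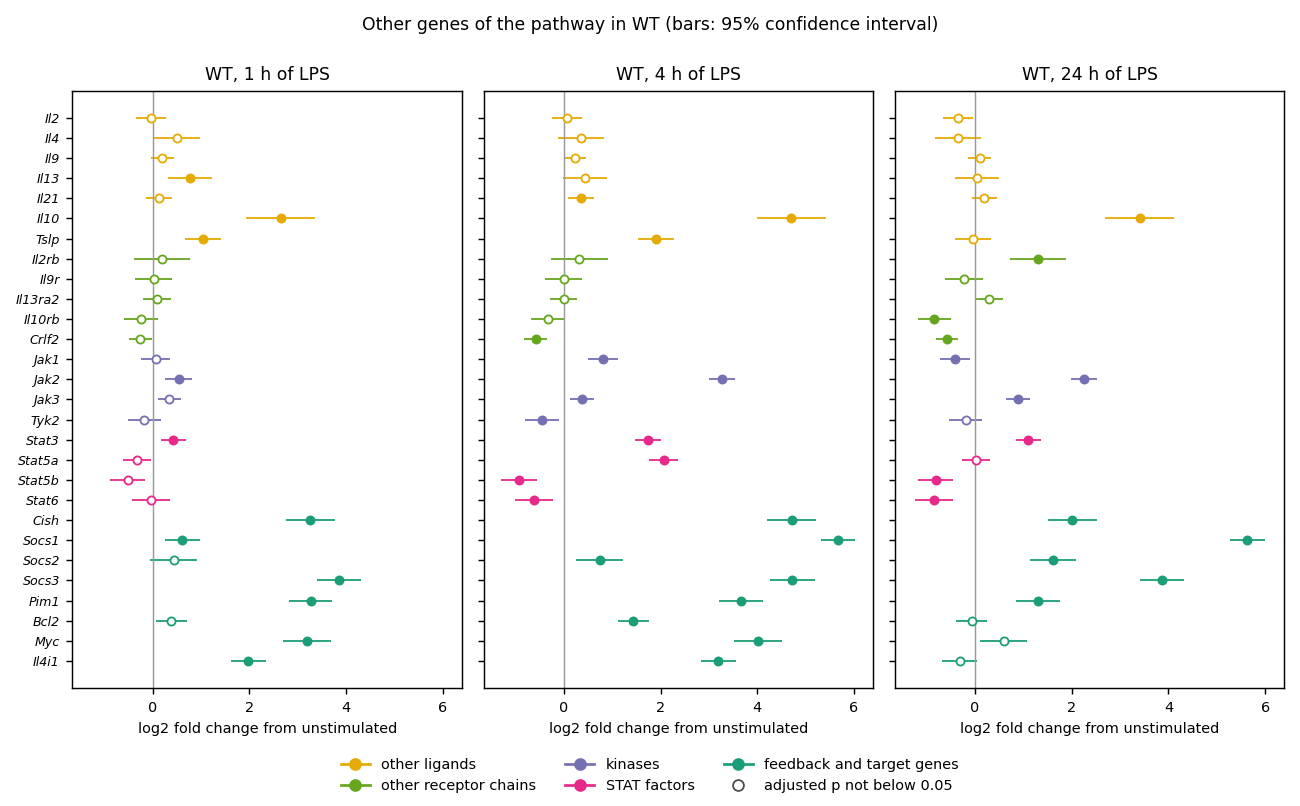
Log2 fold change from unstimulated WT cells (horizontal axis) of the 28 other pathway genes (vertical axis), coloured by role, at 1, 4 and 24 h of LPS, with 95% confidence intervals and open points where the adjusted p is not below 0.05. Cish, Socs3, Pim1, Myc and Il4i1 are up at 1 and 4 h, Jak2, Stat3 and Socs1 stay up at 24 h, and Stat5b and Stat6 fall.

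Lists of like course were read over 16 channels that share arrays, samples and the LPS treatment. How common high correlations were was not counted. For Il4ra they were Cemip2 and Mgat4a (0.970 and 0.968), for Il21r Uck2 and Serpini1 (0.979 and 0.971), and for Il2rg Prb1 and Cdk5r1 (0.972 and 0.965). For Il10ra they were Zfp263 and Arl13b (0.961 and 0.959), and for Il7r after Ltb it was Cpne7 (0.968). The flat genes had lower values, 0.785 with Ogn and 0.774 with Serinc4 for Il7 and 0.909 with Csnka2ip and 0.899 with Tceanc2 for Il13ra1. Within the set, Il2ra correlated with Il21r at 0.93 and Il4ra with Il21r at 0.92.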

How the data were processed

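RNA of KO and WT peritoneal macrophages was compared on 8 arrays, 2 per time point. The deposited scanner files hold, per the file headers, the median pixel intensity of each spot in both dyes, as the authors extracted it with Agilent Feature Extraction 10.7.3, with background and processed signals and no normalization between arrays. The matrix the authors deposited holds normalized log2 ratios of Cy5 to Cy3 and served as an alternative. The methods name loess and quantile normalization in limma, a minimum average log2 intensity of 6 and a t-test between KO and WT.

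Here the intensities went through normexp background correction (offset 50), loess within arrays and quantile normalization between arrays in limma 3.58.1 (statmod 1.5.0, R 4.3.3). Outlier spots were left out and none fell on a member probe. The brightest probe stood for a gene, and tests ran on the 36947 of 37018 genes and transcripts whose average log2 intensity reached 6. Of 55681 gene probes, 27509 were named through RefSeq identifiers. KO/WT ratios were fitted with lmFit, 1 coefficient per time point with 4 residual degrees of freedom, and eBayes. LPS was tested in the separate channels of 36927 genes and transcripts (within-spot correlation 0.116). The p-values were adjusted by Benjamini-Hochberg over everything tested, with a threshold of 0.05. The scripts were tested on simulated data. The number of arrays limits the precision.

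Members, gene lists, marker lists and tests were chosen with earlier results of these data known. The text names the 10 members, most of the 28 listed pathway genes, Furin, Lyz2, some of the listed markers and the 2 genes most like each member. 1 further gene of the pathway list is not reported here. Alternatives were other background, normalization, filter and probe settings, a replicate term, each array left out, the methods' test and the deposited ratios. Reading the second probes of Il15ra and Il4ra, and leaving out the 4 h arrays, were added after seeing the data.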

Additional observations from a re-analysis of the deposited data

Results flagged for a closer look

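The LPS response of Il15 at 24 h differed between KO and WT in the fit with the replicate term, by 1.12 on the log2 scale (adjusted p = 0.0108), and was larger in KO in both replicates. Without that term the same difference had an adjusted p of 0.687.

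The second, dimmer probe of Il15ra showed a difference in the 24 h response of 0.90 on the log2 scale in the fit with the replicate term (adjusted p = 0.0173). It was read after the data were seen, and the brighter probe gave 0.23 with an adjusted p of 0.813 in that fit. At 24 h the KO/WT ratio was above 0 in both dye orientations, at 0.69 and 1.42 for Il15 and at 0.57 and 1.20 for the dimmer Il15ra probe. Why the probes of Il15ra differ was not tested.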

How the results depend on the processing

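With the replicate number in the fit (replicate block), 1 member was called between KO and WT at a time point, 1 in the mean ratio and 1 in the LPS response, each time Il15, where the fit without it called 0. The labels do not say that a number marks shared animals. The KO/WT deviations of replicates 1 and 2 correlated between time points across 36947 genes, which are not independent replicates, at 0.475 to 0.679, and in this design the block is also the dye orientation. The methods' t-test without adjustment called 2. Calls with LPS numbered 15 in WT and 18 in KO over the 3 times, and 14 to 15 in WT and 16 to 17 in KO when each array was left out in turn, while KO against WT, the mean and the response then had 0 calls throughout. Of the values of single genes under the alternatives, 26 lost their call, 18 gained one and none that was called changed direction. Among values not called in either setting, 123 of 1961 had the other sign. With signals processed by the scanner software, the median log2 change of everything tested with LPS lay between -0.37 and -0.05, beside -0.02 to 0.00 in the reported setting. At 4 h in WT these signals gave 3349 calls up and 9444 down over everything tested, and loess alone 3301 and 8583, where the reported setting gave 5726 and 7102. The replicate block raised the calls over everything tested in the mean ratio from 208 to 1029 up and 1190 down. With the 24 h array of replicate 1 left out, the Il15 ratio at 24 h was 1.42, and 0.69 with that of replicate 2 left out. A lone array is assumed there to vary like the other times.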
